A study of Mus musculus with 6 samples.

Results

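Heat shock proteins and the genes of the unfolded protein response were examined in the lungs of young mice with an activated transgene for human SRY. The set was defined by gene symbol with a rule that uses no measured value, but it was chosen with earlier results of these data known. It holds the Hsp70, Hsp90, small heat shock protein, chaperonin, J-domain (Dnaja, Dnajb and Dnajc) and protein disulfide isomerase (Pdia) families, together with Calr, Canx, Xbp1, Atf4, Ddit3, Herpud1, Hyou1, Ern1 and Sel1l. On the array, 106 probes carried a symbol of the set, for 74 of 18138 symbols. Lung RNA of 6 male pups, labelled FVB and described as FVB/N in the study's methods, taken on postnatal day 6, was read on Illumina MouseRef-8 v2.0 bead arrays, for 3 animals of the hSRY-OFF and 3 of the hSRY-ON genotype.

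Each mouse was to hold 1 copy of the Signalox-hSRY transgene, placed at the H11 locus of chromosome 11. In the hSRY-OFF state, the ubiquitous CAG promoter drives the red fluorescent protein DsRed2 and SRY is silent. In hSRY-ON mice, Cre recombinase carried over in the oocytes of Ddx4-Cre mothers had joined the promoter to FLAG-tagged human SRY and EGFP in the single-cell embryo. The hSRY-ON mice chosen for the arrays did not carry Ddx4-Cre themselves, and the driver is not specific to any lung cell. The study also uses the word control for littermates that lack the transgene, so the presence of the transgene in the hSRY-OFF arrays rests on their label. No probe for human SRY is named in the table, so the activated gene itself could not be checked. All 9 lung epithelial marker genes with a probe were measured, Sftpc and Scgb1a1 among them, and their 13 probes all passed the detection filter, with 3 called higher in hSRY-ON and 0 lower.

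Heat shock proteins are chaperones that hold, fold or disassemble other proteins. In the cytosol, unfolded protein releases the transcription factor HSF1, which binds heat shock elements and raises Hsp70, Hsp90, their J-domain partners and small heat shock proteins. In the endoplasmic reticulum (ER), the sensors IRE1 (Ern1), PERK (Eif2ak3) and ATF6 respond to unfolded protein by way of XBP1, ATF4 and cleaved ATF6. These factors raise ER chaperones, disulfide isomerases and the proteins of ER-associated degradation, and they matter in secretory cells such as the alveolar type II cells that make surfactant.

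The regulatory letters through which these responses act are shown for 6 members, because they set apart genes that the results below treat together. Promoters were taken from RefSeq (GRCm38.p6) and matched 60 of the 74 member symbols, and the 250 bases before each start site were searched on both strands. The ER stress element (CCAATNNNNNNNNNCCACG), read by ATF6 with the factor NF-Y, stood in 0.113% of 32851 promoters and in those of 6 members, namely Calr, Canx, Dnajc3, Hsp90b1, Hspa5 and Pdia6. The ER stress element II (ATTGGNCCACG) stood in 0.0304% of promoters and in that of 1 member, Herpud1. The heat shock element, written as alternating units GAANNTTCNNGAA, stood in 0.466% of promoters and in those of Dnajb6, Hspd1 and Hspe1. The core TGACGTGG, which XBP1 and ATF6 can bind, stood in 0.563% of promoters and was not among the letters of any member promoter searched. Capitals mark the matched element in each sequence, which is given 5′ to 3′ on the strand of its gene.
Calr, chr8:84847035-84847133, minus strand: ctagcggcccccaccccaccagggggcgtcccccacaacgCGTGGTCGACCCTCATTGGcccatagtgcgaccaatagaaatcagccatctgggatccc
Hsp90b1, chr10:86705493-86705591, minus strand: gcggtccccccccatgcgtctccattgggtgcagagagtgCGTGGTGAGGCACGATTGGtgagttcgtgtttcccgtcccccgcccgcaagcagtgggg
Pdia6, chr12:17266451-17266549, plus strand: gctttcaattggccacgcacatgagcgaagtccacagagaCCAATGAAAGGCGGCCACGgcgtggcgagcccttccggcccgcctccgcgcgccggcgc
Dnajc3, chr14:118937787-118937885, plus strand: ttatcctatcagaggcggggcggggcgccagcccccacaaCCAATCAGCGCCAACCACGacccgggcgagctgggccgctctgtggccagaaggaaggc
Herpud1, chr8:94386337-94386427, plus strand: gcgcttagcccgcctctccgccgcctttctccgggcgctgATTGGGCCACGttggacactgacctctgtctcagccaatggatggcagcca
Hspd1, chr1:55088019-55088111, minus strand: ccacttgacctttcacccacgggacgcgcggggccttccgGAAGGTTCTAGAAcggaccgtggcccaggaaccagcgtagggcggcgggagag

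In Calr and in the Hsp90b1 element shown, the match lies on the opposite strand, so it reads in reverse complement. Hsp90b1 holds another ER stress element farther from its start site. Hspd1 and Hspe1, which encode the mitochondrial chaperonin Hsp60 and its co-chaperonin Hsp10, are read away from each other on chromosome 1. They share the stretch with the matched heat shock element. A match is a description of letters and was not examined for binding. Only the exact letters within the stretch searched counted as a match. A member without a match may hold the element in other letters or elsewhere, which was not examined.

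Members moved in both directions. Intensities were background-corrected, quantile-normalized and put on the log2 scale, and a probe was tested where its detection p was under 0.05 on at least 3 of the 6 arrays. This left 68 member probes for 54 symbols. A change is the hSRY-ON mean minus the hSRY-OFF mean on the log2 scale (n = 3 each), with its standard error (SE) from the limma fit, and a probe is called where its Benjamini-Hochberg adjusted p over all 13841 tested probes was under 0.05. In hSRY-ON lungs 25 member probes (36.8%) were called, for 21 genes, beside 26.9% of all tested probes. Of these, 12 (17.6%) were higher, beside 13.6% of all probes, and 13 (19.1%) were lower, beside 13.3% of all probes. Among the 57 member probes detected on all 6 arrays, 21 (36.8%) were called, 11 of them higher and 10 lower. When only probes detected on all 6 arrays were tested, 3456 of 11783 were called, and 23 of the 57 member probes. Group values did not overlap for 37 member probes (54.4%), beside 46.6% of all probes. The median change was -0.03 over the members and -0.03 over all tested probes.

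**Figure D1:**
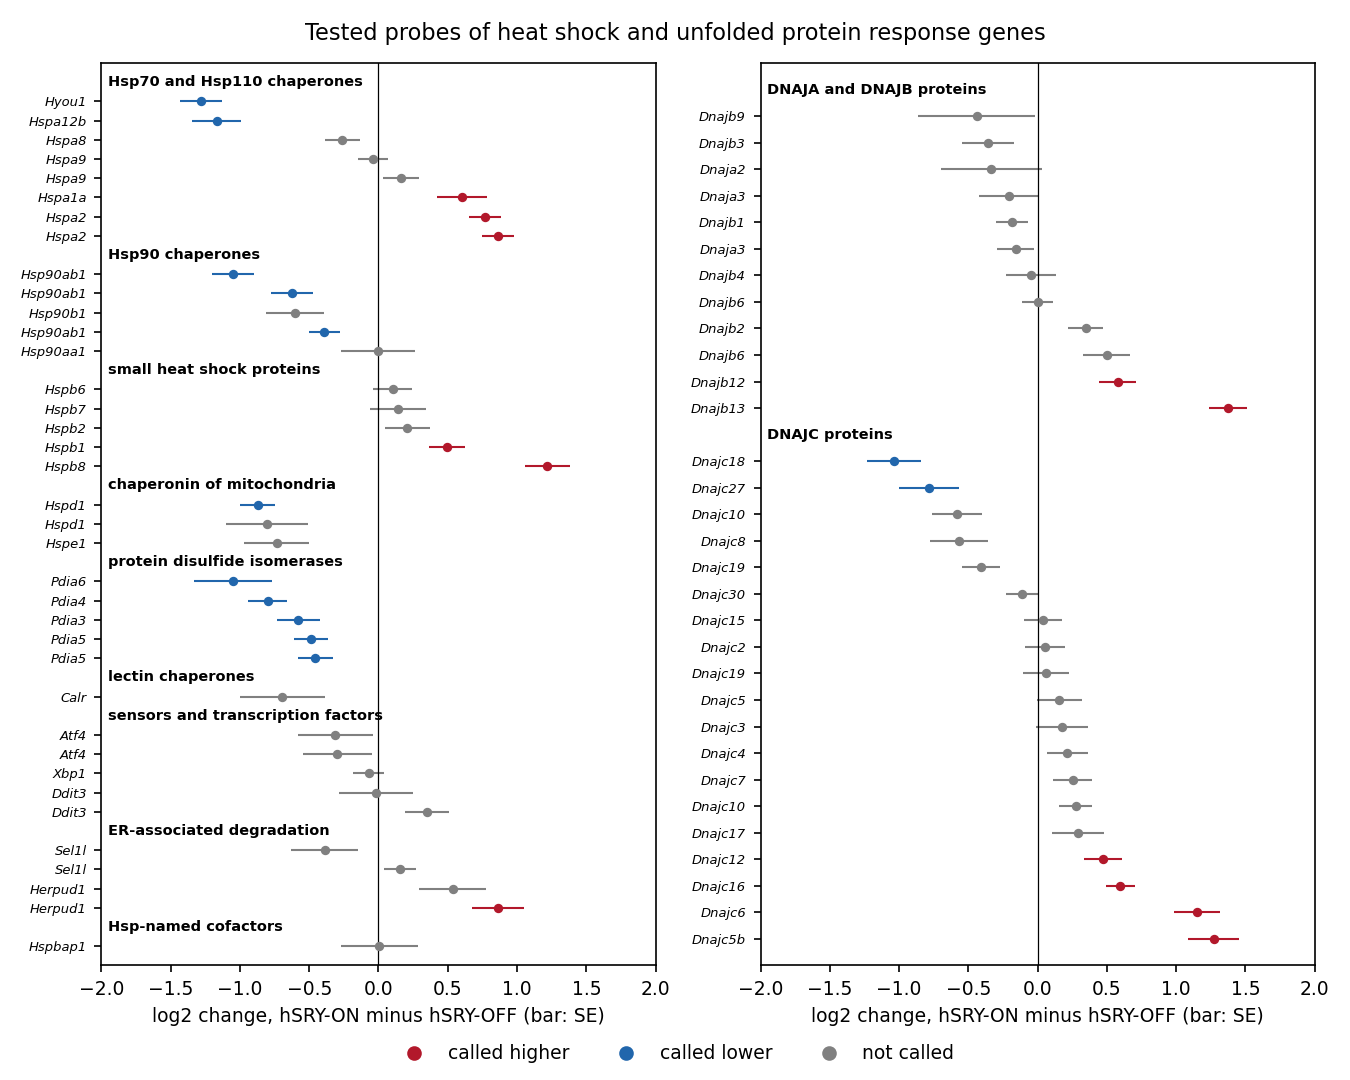
Log2 change (hSRY-ON minus hSRY-OFF, x axis) of each of the 68 tested member probes, 1 row per probe, grouped by protein family, with bars for the SE. Red and blue points passed an adjusted p of 0.05; all 5 protein disulfide isomerase probes lie on the left, and both called small heat shock protein probes on the right.

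The other 38 member probes were not tested, 30 of them detected on no array and 8 on 1 or 2. They include the only probe of Hspa5 (BiP, the main ER Hsp70), which was detected on 1 hSRY-OFF array, and the probes of Canx and Ern1, which were detected on none. Dnaja1, Hspa4, Hspa4l, Hspa13, Hspa14, Dnajc1 and Dnajc9 were likewise without a tested probe, as were 10 further genes of the set, among them Hspa1l and Hspb3. Atf6, Eif2ak3, Hspa1b and Dnajb11 had no row under these symbols. Hsph1, an Hsp110 chaperone, is listed under its older name Hsp105 and so lies outside the rule. Its probe had a change of 0.43 (SE 0.26, adjusted p = 0.264).

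The Pdia isomerases were called lower in hSRY-ON lungs at all 5 tested probes, of 4 genes, beside 13.3% of all tested probes. These thioredoxin-fold enzymes make and shuffle disulfide bonds in the ER. P4hb, Txndc5, Erp29, Tmx1 and Txndc12, related ER genes that the symbol rule does not hold, were not called. Their changes were -0.09, 0.03, 0.09, 0.25 and -0.90 (adjusted p = 0.168 for Txndc12). Pdia4 measured 11.10, 11.01 and 10.90 on the hSRY-OFF arrays and 10.23, 10.00 and 10.39 on the hSRY-ON arrays. The groups were well apart, a fall to 0.575-fold (log2 change -0.80, SE 0.14, adjusted p = 0.00828). Pdia3 (ERp57), which works with calreticulin and calnexin on glycoproteins, measured 13.35, 13.18 and 13.02 in hSRY-OFF and 12.49, 12.47 and 12.84 in hSRY-ON. Its lowest hSRY-OFF array lay just above its highest hSRY-ON array (log2 change -0.58, SE 0.16, adjusted p = 0.0331). Both Pdia5 probes fell alike, by 0.46 (SE 0.12, adjusted p = 0.0360) and 0.49 (SE 0.12, adjusted p = 0.0268). Pdia6, which also limits IRE1 signalling, measured 7.21, 6.57 and 7.05 against 6.35, 5.35 and 5.98. The groups did not overlap, but hSRY-ON replicate 1 lay near the lowest hSRY-OFF array and 1 hSRY-ON array was below detection (log2 change -1.05, SE 0.28, adjusted p = 0.0331).

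These 4 genes did not rest equally on each array. The Pdia4 call held whichever array was left out. The calls of Pdia3, Pdia5 and Pdia6 were lost without any 1 of several arrays, with an adjusted p of up to 0.124 for Pdia3 (without hSRY-OFF replicate 1), 0.132 for the brighter Pdia5 probe (without hSRY-OFF replicate 2) and 0.113 for Pdia6 (without hSRY-OFF replicate 1). Without hSRY-ON replicate 2 these calls were also lost, with the change of Pdia6 at -0.78.

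Among the other ER chaperones, Hyou1 had the largest fitted fall of the called members. Hyou1 (Grp170) is the Hsp110-type partner that exchanges nucleotide on BiP. It measured 6.27, 6.14 and 6.36 in hSRY-OFF, and 5.16, 5.05 and 4.71 in hSRY-ON, where no array passed detection. On the background-corrected scale its level was therefore at least 1.81-fold lower (adjusted p = 0.00242), and the call held whichever array was left out. Without background correction the log2 change of Hyou1 was only -0.38. Hsp90b1 (Grp94), the ER Hsp90, measured 11.91, 11.86 and 12.10 against 11.81, 11.10 and 11.14. The groups did not overlap, but hSRY-ON replicate 1 lay close to hSRY-OFF, and the change of -0.60 (SE 0.21, adjusted p = 0.0712) did not pass. With that array left out it was -0.83 and passed, at an adjusted p of 0.00691. Calr (calreticulin), a lectin chaperone that also buffers calcium, measured 11.71, 11.28 and 10.72 against 10.11, 10.52 and 10.99. Its groups overlapped and the change of -0.70 (SE 0.31, adjusted p = 0.133) did not pass.

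Among ER J-domain proteins, Dnajb12 was called higher and Dnajc3, Dnajb9 and Dnajc10 were not called. Dnajc3 (p58IPK), which restrains eIF2alpha kinases, measured 8.10, 8.51 and 8.39 against 8.16, 8.74 and 8.63 (log2 change 0.18, SE 0.19, adjusted p = 0.520). Dnajb9 (ERdj4), a target of spliced XBP1, had hSRY-OFF values between 7.77 and 8.00, while the hSRY-ON arrays measured 8.38, 7.54 and 6.50. The hSRY-ON arrays thus lay on both sides of hSRY-OFF, and the change was -0.44 (SE 0.42, adjusted p = 0.470). Dnajb12, a membrane J-protein of ER-associated degradation, rose from 8.43, 8.40 and 8.42 to 8.78, 9.06 and 9.14 (log2 change 0.58, SE 0.13, adjusted p = 0.0200). Leaving out hSRY-ON replicate 2 or any single hSRY-OFF array ended this call (adjusted p between 0.0580 and 0.0759). The 2 probes of Dnajc10 (ERdj5), a disulfide reductase, had changes of opposite sign, -0.58 (adjusted p = 0.0539) and 0.28 (adjusted p = 0.125).

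Herpud1 went the other way from the Pdia genes. It encodes an ER membrane protein of the degradation complex and is induced by both ATF4 and ATF6. It measured 12.09, 12.08 and 12.19 in hSRY-OFF and 12.89, 13.38 and 12.68 in hSRY-ON, which is 1.82-fold higher (log2 change 0.86, SE 0.19, adjusted p = 0.0174). All hSRY-ON arrays were above all hSRY-OFF arrays. The call was lost without hSRY-OFF replicate 1 or 2, at an adjusted p of 0.0650 and 0.0661. Its other probe did not pass (log2 change 0.54, SE 0.24, adjusted p = 0.142), since hSRY-ON replicate 3, at 10.76, lay within the hSRY-OFF range of 10.67 to 10.88. For Sel1l, the scaffold of the HRD1 ubiquitin ligase, the brighter probe had a change of 0.16 (adjusted p = 0.344) and the other -0.39 (adjusted p = 0.271).

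The transcription factors of the response showed no called probe. Xbp1 measured 12.40, 12.41 and 12.46 against 12.45, 12.36 and 12.25 (log2 change -0.07, SE 0.11, adjusted p = 0.664). Splicing of Xbp1 by IRE1 was not examined. Atf4 had changes of -0.30 (SE 0.25, adjusted p = 0.408) and -0.31 (SE 0.27, adjusted p = 0.419) at its 2 probes. At the brighter probe, hSRY-ON replicate 1 was at 10.45 and replicates 2 and 3 at 9.68 and 9.55, and with replicate 1 left out the change was -0.58, at an adjusted p of 0.0334. Ddit3 (CHOP), which ATF4 induces, had a change of 0.35 (SE 0.16, adjusted p = 0.147) at the brighter probe, where hSRY-OFF measured 9.36, 9.51 and 9.25 and hSRY-ON 9.90, 9.83 and 9.44. With hSRY-ON replicate 3 left out it was 0.49, at an adjusted p of 0.0393, while the other Ddit3 probe had a change of -0.02 (adjusted p = 0.967).

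Across the ER-resident members, 17 probes of 13 genes were tested, and 6 were called lower and 2 higher. Of all tested probes 13.3% were lower and 13.6% higher. The median change of the ER-resident members was -0.46, beside -0.03 over all tested probes. Of the tested genes, 4 had a match to the ER stress element printed above. Their changes were -1.05 (Pdia6, called), -0.70 (Calr), -0.60 (Hsp90b1) and 0.18 (Dnajc3). Herpud1, with a match to the type II element, rose.

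**Figure D2:**
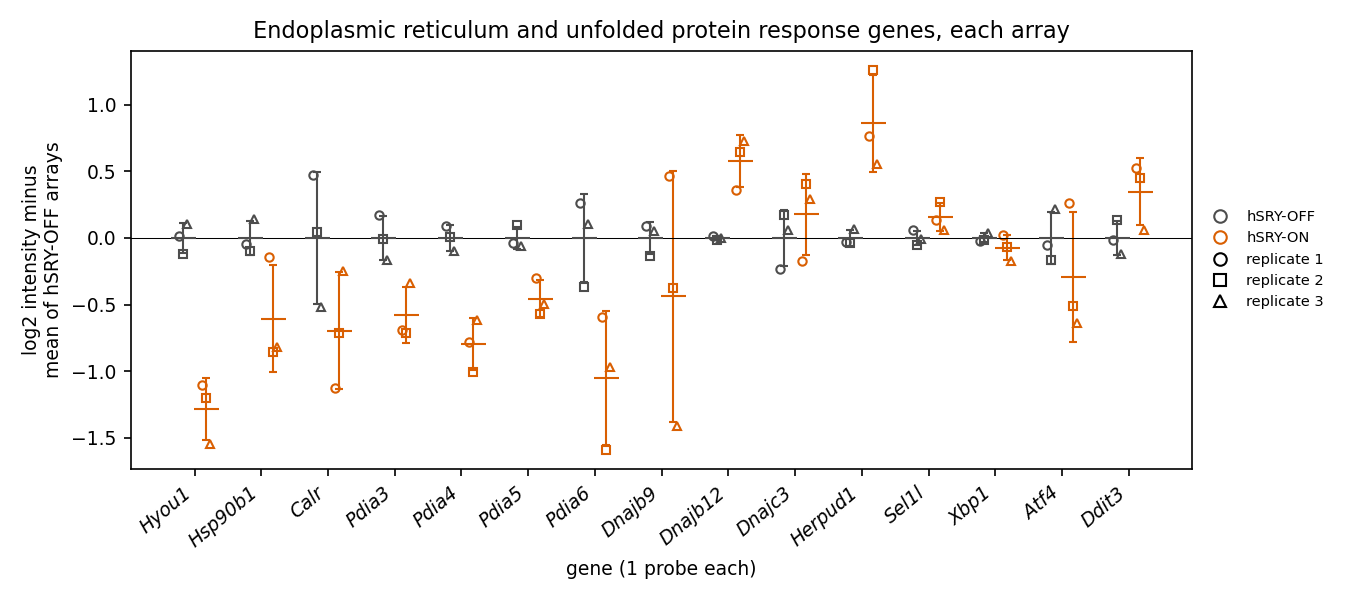
Log2 intensity of each array minus the hSRY-OFF mean of the same probe (y axis) for 15 ER and unfolded protein response genes, 1 probe each, with symbols for replicates and bars for the mean and SD of 3 arrays. Hyou1 and the Pdia genes lie below 0 in hSRY-ON, Herpud1 and Dnajb12 above, and Dnajb9 and Atf4 on both sides.

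In the cytosol, the constitutive Hsp90 was lower. Hsp90ab1 (Hsp90beta) folds kinases and steroid receptors, and all 3 of its probes fell. The brightest measured 13.21, 13.23 and 13.03 in hSRY-OFF and 12.81, 12.73 and 12.76 in hSRY-ON (log2 change -0.39, SE 0.11, adjusted p = 0.0439). The groups were apart, but this call was lost when any array other than hSRY-ON replicate 1 was left out (adjusted p of up to 0.156), and median scaling put the change at -0.25. The second fell by 0.62 (SE 0.15, adjusted p = 0.0252), a call lost without hSRY-OFF replicate 1 or 2 or hSRY-ON replicate 2. The third measured 9.40, 9.41 and 9.39 against 8.62, 8.12 and 8.30 (log2 change -1.05, SE 0.15, adjusted p = 0.00440), and its call held whichever array was left out. The probes thus differed in the size of the change. Hsp90aa1 (Hsp90alpha), the stress-induced form, was close to background and had a change of -0.00 (SE 0.27, adjusted p = 0.993), whose sign turned under several settings.

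The mitochondrial chaperonin was lower too. Hspd1 (Hsp60) measured 9.96, 9.89 and 9.67 in hSRY-OFF and 8.98, 8.90 and 9.02 in hSRY-ON (log2 change -0.87, SE 0.12, adjusted p = 0.00422), a fall to 0.546-fold that held whichever array was left out. Its other probe measured 9.23, 9.20 and 9.19 against 9.14, 8.07 and 7.99, so hSRY-ON replicate 1 lay next to hSRY-OFF, and the change of -0.80 (SE 0.30, adjusted p = 0.0850) did not pass. Hspe1 (Hsp10), which shares the promoter shown above, measured 6.57, 6.67 and 6.72 against 6.39, 5.94 and 5.43. The groups did not overlap and the change was -0.73 (SE 0.23, adjusted p = 0.0569), and with hSRY-ON replicate 1 left out it was -0.98, at an adjusted p of 0.0107. Dnajb6, a J-domain gene and the other member with a match to the heat shock element letters, had changes of 0.0009 (adjusted p = 0.997) and 0.50 (adjusted p = 0.0647). Hspa9 (mortalin), the Hsp70 of the mitochondrial import motor, had changes of 0.16 (adjusted p = 0.391) and -0.04 (adjusted p = 0.809). Over all mitochondrial members, 1 of 11 tested probes was called lower and 0 higher, beside 13.3% and 13.6% of all tested probes. Their median change was -0.16.

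Cytosolic Hsp70 proteins were divided. Hspa8 (Hsc70), the constitutive form, measured 13.96, 13.71 and 13.65 against 13.49, 13.58 and 13.46 (log2 change -0.26, SE 0.13, adjusted p = 0.168). Its J-domain partner Dnajb1 (Hsp40) measured 11.42, 11.36 and 11.39 against 11.09, 11.33 and 11.20 (log2 change -0.19, SE 0.12, adjusted p = 0.268). In both genes every hSRY-ON array lay below every hSRY-OFF array by a small margin. Hspa1a (Hsp72), the strongly inducible form, rose from 5.48, 5.89 and 5.82 to 6.25, 6.63 and 6.13 (log2 change 0.61, SE 0.18, adjusted p = 0.0455). This was a dim probe, its call was lost without any array but hSRY-ON replicate 3 (adjusted p of up to 0.154), and without background correction the change was 0.20 (adjusted p = 0.114). Hspa1a shares nearly all of its sequence with Hspa1b, so their signals may not be separate. A list of HSF1-inducible members, which also holds the mitochondrial Hspd1 and Hspe1, had 11 tested probes of 8 genes. Of these 2 were called higher and 4 lower, beside 13.6% and 13.3% of all tested probes. The median change of the list was -0.39. Its 8 probes of cytosolic members gave 2 higher and 3 lower calls and a median change of -0.22, and all 3 lower calls were on Hsp90ab1.

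Hspa2 and Hspa12b showed the largest changes among the cytosolic Hsp70 members. Hspa2, best known from spermatocytes, measured 10.55, 10.65 and 10.73 in hSRY-OFF and 11.34, 11.47 and 11.44 in hSRY-ON, which is 1.70-fold higher (log2 change 0.77, SE 0.11, adjusted p = 0.00486). Its other probe rose by 0.86 (SE 0.11, adjusted p = 0.00340), and both calls held whichever array was left out. Hspa12b, a distant Hsp70 relative of endothelial cells, fell from 10.64, 10.54 and 10.36 to 9.70, 9.18 and 9.16 (log2 change -1.17, SE 0.18, adjusted p = 0.00549), also with any array left out. A list of 12 endothelial genes was chosen after the Hspa12b values had been seen. Of its 16 tested probes 4 were lower and 1 higher, beside 13.3% and 13.6% of all tested probes. Its median change was -0.29. The summed intensity of these markers was 92438 to 114240 in hSRY-OFF and 79087 to 85038 in hSRY-ON. In whole lung, fewer cells of a type and less RNA per cell cannot be told apart, and the part of endothelial cells in this fall was not tested.

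Small heat shock proteins, which bind unfolding proteins without ATP, had 2 of 5 tested probes called higher and 0 lower. Over all tested probes the shares were 13.6% and 13.3%. Cryab, a small heat shock protein outside the symbol rule, had a change of 0.09 (adjusted p = 0.687). Hspb8, which with Bag3 directs proteins to autophagy, rose from 7.68, 7.74 and 7.72 to 8.96, 9.21 and 8.63, or 2.32-fold (log2 change 1.22, SE 0.16, adjusted p = 0.00352). The hSRY-ON arrays were all far above hSRY-OFF, and the call held whichever array was left out. Hspb1 (Hsp25) rose from 9.46, 9.74 and 9.55 to 10.01, 10.21 and 10.00 (log2 change 0.49, SE 0.13, adjusted p = 0.0328), a call lost without hSRY-ON replicate 2 or any single hSRY-OFF array (adjusted p between 0.0585 and 0.125). Hspb2, Hspb6 and Hspb7, known from muscle, had changes between 0.10 and 0.21 that did not pass. Smooth muscle markers moved the other way: 9 of 11 tested probes were lower (median change -0.95), and their summed intensity was 56645 to 63387 in hSRY-OFF and 28936 to 42683 in hSRY-ON. Of cardiac markers 1 of 12 tested probes was higher and 3 were lower, and of skeletal muscle markers 0 of 5 were called.

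The J-domain proteins, which deliver clients to Hsp70 and trigger its ATPase, gave 31 tested probes, of which 8 (25.8%) were called, a share close to the 26.9% of all tested probes. Dnajb13, a radial spoke protein of motile cilia and sperm tails, had the largest rise of the called members. It measured 7.39, 7.51 and 7.49 in hSRY-OFF and 9.06, 8.71 and 8.73 in hSRY-ON, which is 2.59-fold higher (log2 change 1.37, SE 0.14, adjusted p = 0.00147), and the call held whichever array was left out. Motile cilium markers were also higher in hSRY-ON. Of their 11 tested probes 9 were higher and 0 lower, with a median change of 1.38, and their summed intensity was 6505 to 7983 in hSRY-OFF and 10734 to 13540 in hSRY-ON. Whether Dnajb13 moved through the share of ciliated cells was not tested.

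Of 19 tested probes of Dnajc genes, 4 were called higher and 2 lower, beside 13.6% and 13.3% of all tested probes. Dnajc6 (auxilin), which helps Hsc70 to uncoat clathrin vesicles, rose from 5.36, 5.50 and 5.44 to 6.92, 6.45 and 6.37 (log2 change 1.15, SE 0.17, adjusted p = 0.00468). Dnajc5b, a relative of the cysteine string protein, was detected on no hSRY-OFF array and on all hSRY-ON arrays. On the background-corrected scale its level was at least 1.85-fold higher (adjusted p = 0.00486). Dnajc16 rose evenly, from 8.20, 8.18 and 8.25 to 8.80, 8.78 and 8.84 (log2 change 0.59, SE 0.10, adjusted p = 0.00849). These 3 calls held whichever array was left out. Dnajc18 fell from 6.55, 6.31 and 6.32 to 5.31, 5.02 and 5.73, where 1 hSRY-ON array passed detection (log2 change -1.04, SE 0.19, adjusted p = 0.0102). Dnajc12 rose by 0.47 (adjusted p = 0.0425) and Dnajc27 fell by 0.78 (adjusted p = 0.0361), and both calls were lost without hSRY-ON replicate 2 or any single hSRY-OFF array.

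**Figure D3:**
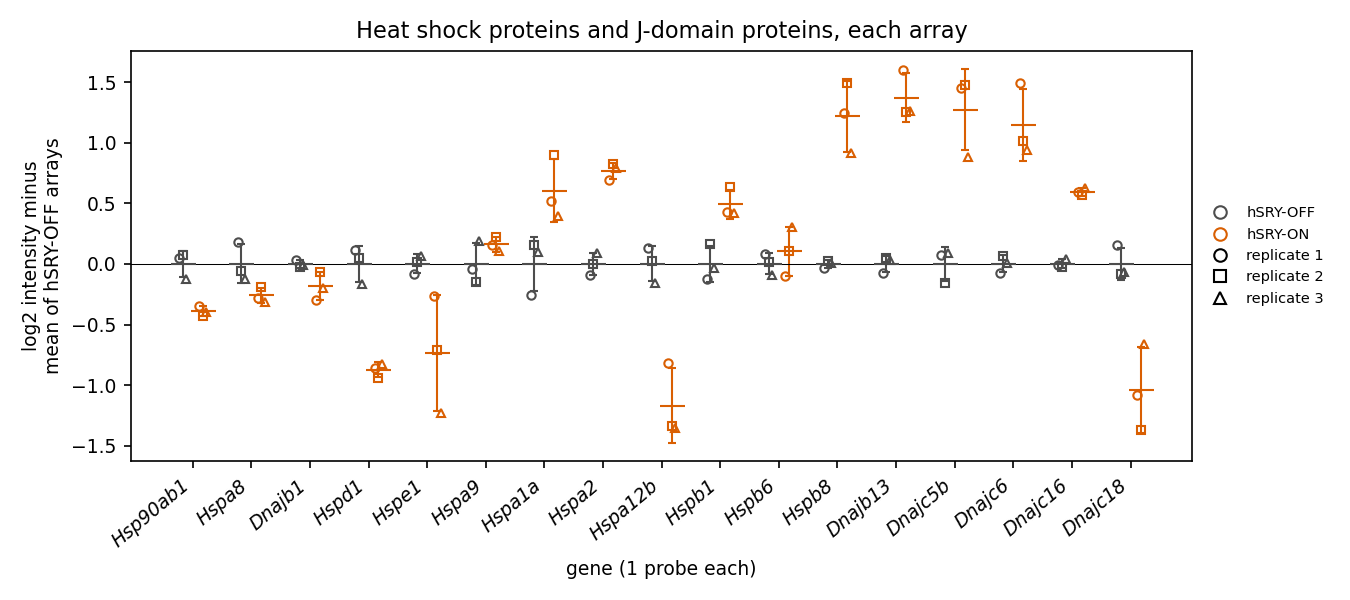
Log2 intensity of each array minus the hSRY-OFF mean of the same probe (y axis) for 17 heat shock and J-domain genes, 1 probe each, with symbols for replicates and bars for the mean and SD of 3 arrays. Hsp90ab1, Hspd1, Hspa12b and Dnajc18 lie below 0 in hSRY-ON, and Hspa2, Hspb8, Dnajb13, Dnajc5b, Dnajc6 and Dnajc16 above.

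The size of the change depends on the background step for dim probes. Without background correction the log2 change of Hyou1 was -0.38, of Pdia6 -0.40, of Dnajc6 0.38, of Dnajc5b 0.38 and of Dnajc18 -0.32, and each stayed called. Median scaling ended 5 of the 25 calls, those of Pdia3 (adjusted p = 0.0972), Dnajb12 (0.0505), Hspa1a (0.0542), the brightest Hsp90ab1 probe (0.201) and Dnajc12. With calls gained at other probes it gave 24, of which 9 were higher and 15 lower, beside 12 and 13 in the main fit. Arrays also spread more in hSRY-ON. The SD was larger there for 53 member probes (77.9%), beside 73.6% of all tested probes, with a member median of 0.24 against 0.11 in hSRY-OFF. For 18 of the 25 called probes, hSRY-ON replicate 2 was the array farthest from the hSRY-OFF mean. Of the 25 calls, 13 held whichever single array was left out and 14 held without hSRY-ON replicate 2, and none changed sign.

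Genes that work with the members were taken from 3 lists drawn up by function. Over these lists 95 probes were tested and 25 (26.3%) were called, a share close to the 26.9% of all tested probes. Of them 9 (9.47%) were higher and 16 (16.8%) lower, beside 13.6% and 13.3% of all probes, and the median change was -0.02. Without hSRY-OFF replicate 1 the calls over these lists numbered 7, and without hSRY-ON replicate 1 they numbered 32. The cytosolic list holds HSF1, the Hsp70 and Hsp90 co-chaperones, the chaperonin CCT and the HSF1 target Serpinh1, and 8 of its 26 tested probes (30.8%) were lower and 1 higher (median change -0.35). Serpinh1 (Hsp47), a collagen chaperone that resides in the ER, fell by 1.07 (SE 0.24, adjusted p = 0.0192), a call lost without any single hSRY-OFF array (adjusted p between 0.0582 and 0.0735). Without Serpinh1 the list gave 7 lower calls of 25 probes and a median change of -0.34. One probe each of the CCT subunits Tcp1 (log2 change -0.59, adjusted p = 0.0242), Cct3 (-0.54, adjusted p = 0.0253) and Cct6a (-0.38, adjusted p = 0.0488) was lower, as were the Hsp70-Hsp90 adaptor Stip1 (-0.46, adjusted p = 0.0294) and Hsf1 itself (-0.42, adjusted p = 0.0459). Of the other CCT probes, Cct4 (0.02, adjusted p = 0.917), Cct2 (-0.02, adjusted p = 0.955), Cct8 (-0.53, adjusted p = 0.183) and the second probes of Tcp1 (-0.54, adjusted p = 0.0830) and Cct3 (-0.34, adjusted p = 0.0849) did not pass. The single rise was that of Fkbp5, an Hsp90 co-chaperone that glucocorticoids induce, at 7.71-fold (log2 change 2.95, SE 0.33, adjusted p = 0.00203).

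Proliferation markers were also lower in hSRY-ON than in hSRY-OFF lungs. Of their 15 tested probes 12 were lower and 0 higher, with a median change of -1.41, and their summed intensity was 16445 to 21574 in hSRY-OFF and 7162 to 14055 in hSRY-ON. Their part in the lower Hsp90ab1, Hspd1 and called CCT values was not tested.

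For the ER list of translocation, folding and degradation genes, 6 of 35 tested probes (17.1%) were lower and 2 higher (median change -0.15). In all, 22.9% of the tested probes of this list were called, beside 26.9% of all tested probes. Both probes of Sec61b, a subunit of the protein channel into the ER, fell, by 0.68 (SE 0.16, adjusted p = 0.0219) and 1.18 (SE 0.15, adjusted p = 0.00324). The first of these calls was lost without any single hSRY-OFF array (adjusted p between 0.0599 and 0.0883). One probe each of Creb3l2 (log2 change -0.73, adjusted p = 0.00906), an ER-bound factor of secretory capacity, and of the ER stress target Creld2 (-0.65, adjusted p = 0.0202) was lower, and so were 2 of 3 probes of Mbtps1, the site-1 protease that cleaves ATF6. Edem2 (1 of 3 probes) and Ero1lb were the rises. P4hb, the founding disulfide isomerase, which the symbol rule does not hold, had a change of -0.09 (SE 0.13, adjusted p = 0.625).

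The list of ATF4 targets and eIF2alpha kinases had 6 of 34 tested probes (17.6%) higher, beside 13.6% of all probes, and 2 (5.88%) lower, beside 13.3%, with a median change of 0.26. Slc7a11, the cystine transporter, was detected on no hSRY-OFF array and on all hSRY-ON arrays. On the background-corrected scale it was at least 4.67-fold higher (adjusted p = 0.000694). Its fitted change was 2.70, or 1.02 without background correction. The stress protein Nupr1 rose 2.90-fold (log2 change 1.54, SE 0.21, adjusted p = 0.00381), Sesn2 rose 2.26-fold (log2 change 1.18, SE 0.22, adjusted p = 0.00959) and 1 of 3 probes of Trib3 rose 1.64-fold (adjusted p = 0.0417). Amino acid synthesis genes of the same list did not follow. Phgdh fell by 0.74 (SE 0.13, adjusted p = 0.00906) and 1 of 2 Shmt2 probes fell by 0.65 (adjusted p = 0.0126). Psat1 had a change of -0.56 (adjusted p = 0.0522) that did not pass. Asns, which ATF4 also induces, had changes of -0.23 and 0.02 that did not pass. Several of these genes also answer to factors other than ATF4. In macrophage markers 10 of 18 tested probes were higher and 0 lower, beside 13.6% and 13.3% of all probes. Their summed intensity was 95081 to 107360 in hSRY-OFF and 131790 to 145990 in hSRY-ON. The brightest probes in this sum were of lysozyme genes (hSRY-OFF means of 15.14, 14.92 and 14.44). Cd14, Cd68, Marco and Mrc1 were called higher. Emr1 (changes of -0.26, 0.15 and 0.09) and Csf1r (0.41 and 0.12) were not called. The part of these markers in the rises of Slc7a11, Nupr1, Sesn2 and Trib3 was not tested.

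**Figure D4:**
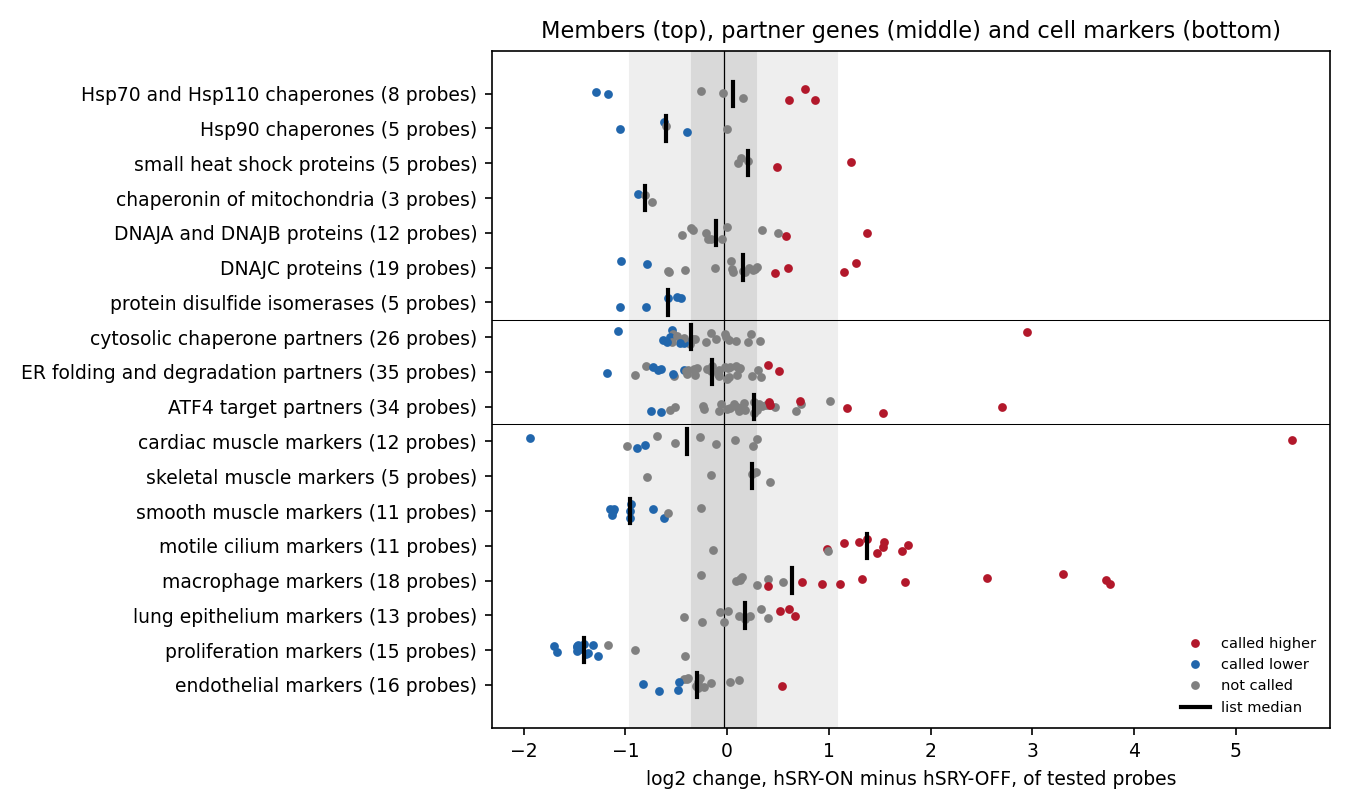
Log2 change (hSRY-ON minus hSRY-OFF, x axis) of every tested probe of 7 member families, 3 lists of partner genes and 8 lists of cell markers. Black bars are list medians, and the dark and light grey bands span the 25th to 75th and 5th to 95th percentiles of all 13841 tested probes. Medians left of the 25th percentile are those of the isomerases, Hsp90, mitochondrial chaperonin, cytosolic partners and smooth muscle, cardiac and proliferation markers. The median of the cilium markers lies right of the 95th.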

How the data were processed

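The authors deposited, for lung RNA of 3 hSRY-OFF and 3 hSRY-ON mice, a table with an intensity (mean bead signal on a linear scale, not normalized) for each probe and array. It also holds a detection p-value that the authors deposited beside each intensity. The software that summarised the beads is not stated. The study's methods name the R package TCC, which models counts, and the submitters' processing notes name limma, which was run here (version 3.58.1, R version 4.3.3).

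The steps of neqc were followed: normexp background correction with the detection p-values (offset 16), quantile normalization, then log2. A probe was tested if at least 3 of the 6 arrays gave it a detection p under 0.05. The model was lmFit and eBayes with no covariate, two-sided, and Benjamini-Hochberg adjustment ran over all 13841 tested probes. The pipeline was tested on simulated data. The array medians of the deposited intensities were 177.1 to 204.0, and 13191 to 14134 probes were detected per array. The number of arrays limits the precision. No arrays held identical values, and no batch is given. The replicates are labelled as separate mice of a group by the study. The p-values set each change against the spread between these samples, with the variance moderated over all tested probes.

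A probe detected on no array of 1 group is given as a bound, the other group's mean against the mean, per array, of the higher of its own value and the lowest detected value. These values are background-corrected, so the bound holds on that scale only. Summed intensities add the deposited values of all probes of a list. Symbols of the table were matched to current names through RefSeq synonyms (GRCm38.p6), which renamed 2927. Named genes were listed whatever their result, with the called genes of smallest adjusted p in each list and the 5 largest rises and falls among called members without overlap. Genes with several tested probes are described by the probe with the highest mean, and others are given where they differ. The members and lists were chosen with earlier results of these data known. Other scalings, background corrections, filters, variance models, thresholds, probe rules, a replicate block and fits without each array were tried. Protein sequence features were not analysed here.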

Additional observations from a re-analysis of the deposited data

How the results depend on the processing

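The direction of all 19 called genes among the 33 named members that were tested held under every alternative run, and 10 of them stayed called under each. Limits are the 3 arrays per group, the larger spread in hSRY-ON and, for dim probes, signal near background. At an adjusted p under 0.01, 1326 probes were called in all, with 12 member probes (7 higher, 5 lower) and 7 partner probes. Leaving out 1 array at a time gave 1652 to 4442 calls over all probes, 13 to 29 over members (7 to 16 higher, 6 to 18 lower) and 7 to 32 over partners. The lowest counts came without hSRY-OFF replicate 1 (13 members) and the highest without hSRY-ON replicate 1 (29 members), and a fit to 5 arrays also has fewer degrees of freedom. With the replicate block 15 member probes (7 lower) and 14 partner probes were called. Deviations of same-numbered arrays had correlations of -0.107, 0.0957 and -0.0927 for numbers 1, 2 and 3. With 3 arrays per group, these cannot settle whether same-numbered arrays were paired. One probe per symbol among probes detected on all arrays, an alternative chosen after seeing the data, gave 8 lower calls. The median change of the members, -0.03, became -0.0019 with median scaling, 0.0044 with cyclic loess, 0.038 with detection on all arrays, -0.052 with array weights, 0.022 with 1 probe per symbol and 0.10 under that added alternative, and ran from -0.056 to -0.025 with 1 array left out. The median of all tested probes moved by less than 0.1 under each scaling (-0.03, -0.03 and -0.01). The reversals were in genes not called: Dnajb9 had a change of 0.045 without hSRY-ON replicate 3 (with 1 array left out, from -0.90 to 0.045), Xbp1 of 0.028 with median scaling, and Hsp90aa1 of 0.031 with median scaling, 0.0051 with cyclic loess and 0.099 with array weights (with 1 array left out, from -0.21 to 0.22). The cause of these moves was not tested.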
